A study of Homo sapiens with 7 samples.

Results

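The 9 genes described here encode the receptors, adhesion chains and 1 transcription factor that guide T cells and their precursors into, through and out of the thymus. They were CCR9, CCR7, CXCR4, S1PR1, KLF2, ITGAL, ITGA4, ITGB7 and CD44, taken by gene symbol out of 60662 genes in the tables, and all 9 passed the filter on low counts in each fit. Total RNA was sequenced from 2 human T-cell acute lymphoblastic leukaemia cell lines, to show what losing STAG2 does to gene expression. STAG2 is a subunit of cohesin, the ring complex that holds sister chromatids together and folds chromatin into loops. PF-382 gave 3 libraries of STAG2 knockout (KO) cells, edited with a Cas9-gRNA ribonucleoprotein, and 2 of wild-type (WT) cells without treatment. MOLT-14 gave 1 library of cells carrying a STAG2 vector after transduction and 1 of cells carrying an empty vector (EV). The labels do not say whether a knockout library is a clone or a mixed edited culture, nor whether libraries of a group are separate cultures, so p-values measure the spread between these libraries only. In the titles both WT libraries and KO replicate 1 carry codes starting with SA, and KO replicates 2 and 3 codes starting with SB, and the labels give these letters no meaning.

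T-cell precursors enter the thymus and move through it along chemokine gradients. CCR9 reads CCL25 made by thymic epithelium, CXCR4 reads CXCL12 in the outer cortex, and CCR7 reads CCL19 and CCL21 in the medulla. Mature thymocytes, as shown in mice, leave when the transcription factor KLF2 turns on S1PR1, a receptor for sphingosine 1-phosphate, which is abundant in blood. Firm attachment to vessel walls and stroma uses integrins, paired alpha and beta chains, and CD44 binds the matrix sugar hyaluronan.

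The depth was 65262329, 93970572 and 81304948 counts in the KO libraries, against 32609485 and 33145516 in the WT libraries, and 45013450 with STAG2 against 38678382 with EV in MOLT-14. Every KO library was deeper than either WT library, so depth and genotype cannot be told apart. Small nuclear, nucleolar and other short non-coding RNAs took 12.0%, 13.98% and 13.7% of counts in the KO libraries, against 20.97% and 14.9% in WT, and 9.27% with STAG2 against 4.87% with EV in MOLT-14. The part of this share in the results was not tested. Levels are CPM, counts divided by TMM-scaled library totals over all 7 libraries, where 3 counts make 0.0347 to 0.0491 CPM in KO and 0.0938 to 0.0971 CPM in WT libraries. STAG2 itself had 256, 179.7 and 195 CPM in the KO libraries, against 334 and 567 CPM in WT, which is -1.13 ± 0.26 (SE) in log2 (edgeR, adjusted p 0.0218). It lost its call without KO replicate 2 (adjusted p 0.0757) or KO replicate 3 (0.0773) and with the title-code term described below (0.199), and its transcripts were measurable in every KO library. In MOLT-14 it had 137 CPM with the STAG2 vector and 1.15 CPM with EV. The 9 T-lineage markers summed to 2257 to 2546 CPM in KO and 2464 to 2710 CPM in WT libraries, and to 2064 CPM with STAG2 and 1840.1 CPM with EV in MOLT-14. Of these 9, CD5 was lower in KO (54.7 CPM, against 104 CPM in WT, edgeR, adjusted p 0.0041) and 8 were not called. CD7 averaged 25.5 CPM in KO and 24.9 CPM in WT, against 425 CPM with STAG2 and 415 CPM with EV. CD2 averaged 0.893 CPM in KO and 1.17 CPM in WT. The T-cell receptor delta constant gene TRDC was at 0 in all PF-382 libraries, and at 57.8 CPM with STAG2 and 62.2 CPM with EV in MOLT-14. The 8 myeloid markers summed to 0.185 to 0.437 CPM in KO and 12.9 to 30.8 CPM in WT. In WT these were almost all CD68 and CTSG, both lower in KO (edgeR, adjusted p 0.00218 and 0.00444), while MPO, ELANE, CSF1R and CD14 were at or near 0 in all 5 PF-382 libraries. The part of these genes in the results below was not tested. The 8 B-lineage markers summed to 4.47 to 19.8 CPM in KO and 9.68 to 41.9 CPM in WT, mostly CD79A, with MS4A1 and PAX5 at or near 0 in every library. Natural killer markers summed to at most 0.969 CPM and erythroid and megakaryocyte markers to at most 2.09 CPM in PF-382. Endothelial, stromal and epithelial markers, nearly all PECAM1 and KRT18, summed to 53.5 to 58.0 CPM in KO and 62.2 to 68.6 CPM in WT.

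The promoter windows of 3 genes called in PF-382 are shown first, because KLF-family factors are known regulators of S1PR1. Windows run from 250 bases before to 50 bases after a RefSeq start (GRCh38.p14), 5′ to 3′ on the gene's strand. Capitals mark the core CCACCC bound by KLF factors or its reverse complement GGGTGG. S1PR1 lies at chr1:101236769-101237068 on the plus strand, ITGA4 at chr2:181457136-181457435 on the plus strand, and the 2 CCR9 windows at chr3:45886293-45886592 and chr3:45893967-45894266, both on the plus strand.
S1PR1: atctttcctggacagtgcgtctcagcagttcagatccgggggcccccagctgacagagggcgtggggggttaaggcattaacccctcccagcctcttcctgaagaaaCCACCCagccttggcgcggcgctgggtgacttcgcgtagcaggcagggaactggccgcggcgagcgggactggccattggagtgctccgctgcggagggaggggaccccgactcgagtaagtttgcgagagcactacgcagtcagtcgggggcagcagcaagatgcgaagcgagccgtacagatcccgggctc
ITGA4: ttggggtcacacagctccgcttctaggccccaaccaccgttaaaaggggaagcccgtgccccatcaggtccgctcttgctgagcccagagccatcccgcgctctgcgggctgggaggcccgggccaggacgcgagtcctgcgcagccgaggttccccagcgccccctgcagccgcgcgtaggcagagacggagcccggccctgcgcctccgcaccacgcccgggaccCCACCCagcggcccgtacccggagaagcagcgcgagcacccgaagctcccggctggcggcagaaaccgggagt
CCR9, upstream window: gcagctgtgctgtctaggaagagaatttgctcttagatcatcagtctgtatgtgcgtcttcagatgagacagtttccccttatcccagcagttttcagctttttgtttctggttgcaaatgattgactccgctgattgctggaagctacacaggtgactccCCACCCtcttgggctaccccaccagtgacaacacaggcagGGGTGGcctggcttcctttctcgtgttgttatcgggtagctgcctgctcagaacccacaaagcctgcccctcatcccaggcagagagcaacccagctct
CCR9, downstream window: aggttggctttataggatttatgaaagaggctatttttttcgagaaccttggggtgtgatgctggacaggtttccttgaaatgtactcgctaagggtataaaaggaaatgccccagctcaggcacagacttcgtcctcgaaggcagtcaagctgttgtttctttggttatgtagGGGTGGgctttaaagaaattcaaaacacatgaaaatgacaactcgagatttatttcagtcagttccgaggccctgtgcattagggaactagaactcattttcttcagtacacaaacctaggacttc
Across the 7 genes of the set with a window there were 10 windows, and 8 held this core, which 34.3% of all 34943 windows hold. The windows of KLF2 and CD44 did not hold it. CXCR4 and CCR9 had multiple windows, those of CXCR4 partly overlapping, so windows are not independent. CCR7 and ITGAL had no window, and enrichment was not tested. The RUNX core TGTGGT, searched on both strands, was in no window of the set and in 13.1% of all windows. The ETS core CAGGAA or its reverse complement TTCCTG was in 28.4% of all windows, and S1PR1 held 2 copies. A match is a stretch of letters and not a measured binding site.

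Knocking out STAG2 in PF-382 came with higher CCR9 and CCR7 and lower S1PR1, ITGAL and ITGA4. The thymus-entry receptor CCR9 was 2.40-fold higher, while the egress receptor S1PR1 was 9.15-fold lower and the integrin chain ITGAL was 3.995-fold lower. CXCR4, the most abundant of the 9 per transcript length in PF-382, differed between the groups by less than the spread between libraries. In all, 2 genes were called higher, 3 lower and 4 were not called, in a comparison in which 30.4% of all 17442 tested genes were called, 15.8% higher and 14.6% lower. Scaled by the upper quartile instead, 30.9% were called, split into 10.5% higher and 20.4% lower. KO and WT libraries did not overlap for 5 of the 9, against 60% of all tested genes, so lack of overlap does not set these genes apart. The median log2 change of the 9 was 0.28, and that of all tested genes was -0.02. With the letters of the title code as a second term, chosen after seeing the data, KO replicate 1 is in effect set against both WT libraries, and 2.51% of all genes were called, 1.67% higher and 0.843% lower. In that fit all 5 genes kept their sign, and edgeR called ITGAL (log2 -2.0004, adjusted p 0.0434). It did not call CCR9 (1.36, adjusted p 0.0546), S1PR1 (-3.42, 0.0722), ITGA4 (-0.86, 0.108) or CCR7 (1.56, 0.202). For each of the 5, KO replicate 1 lay on the same side of both WT libraries as the other KO libraries. From bulk RNA, fewer cells with a transcript and less of it per cell cannot be told apart.

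**Figure D1:**
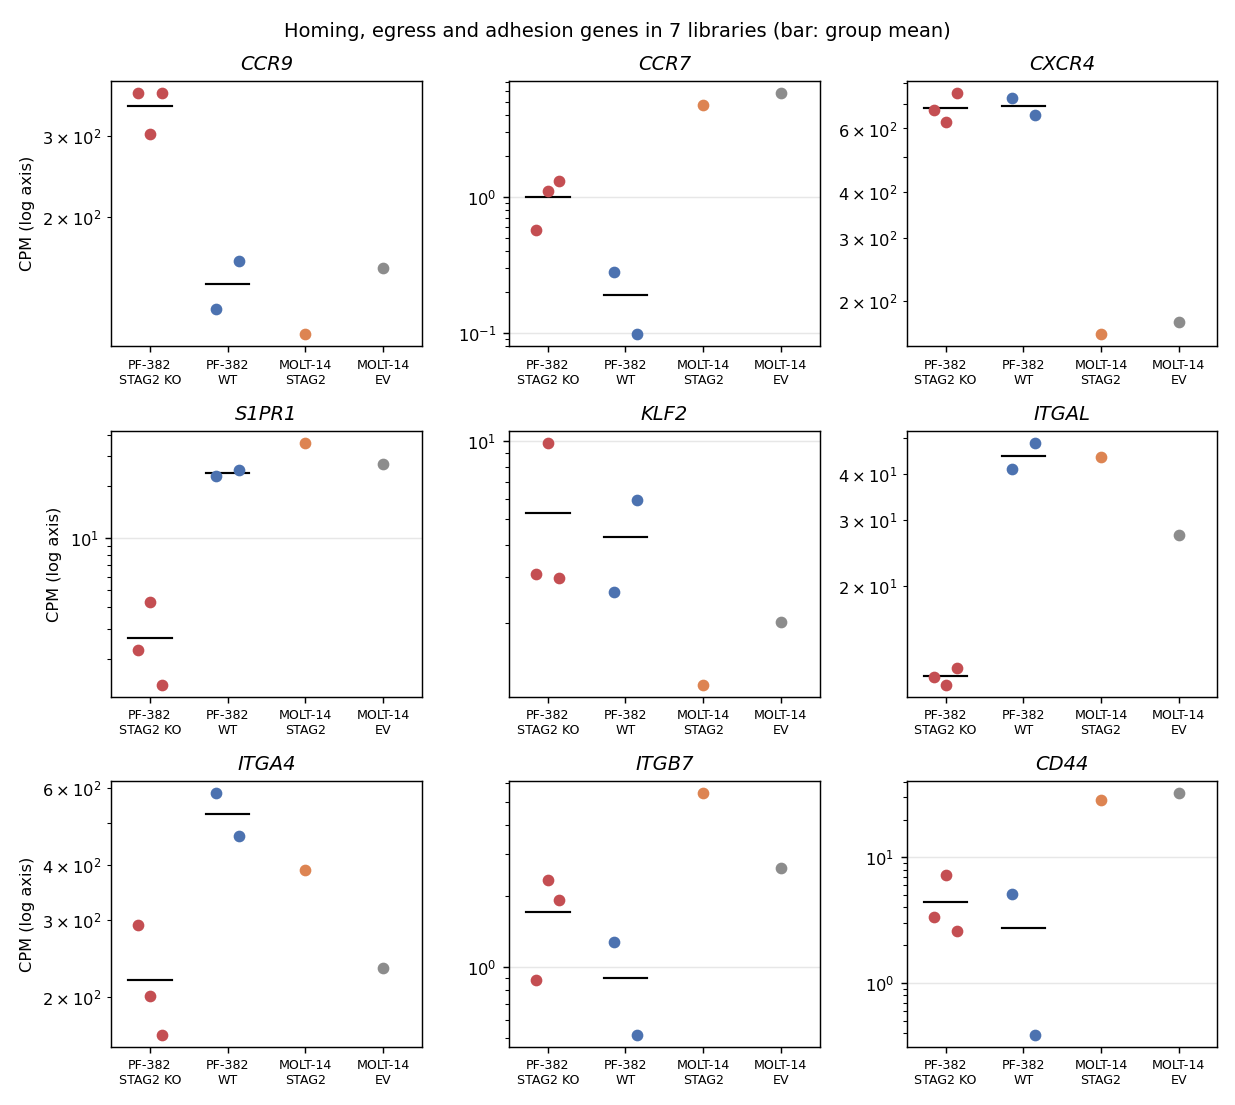
Level of each of the 9 genes in every library (CPM, log axis, its own scale in each panel), with a bar at the mean of the PF-382 groups. S1PR1, ITGAL and ITGA4 lie lower in the 3 STAG2 KO libraries than in both WT libraries, CCR9 and CCR7 lie higher, and CD44 spans 0.389 to 5.09 CPM between the 2 WT libraries.

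CCR9 (chromosome 3, 45886504 to 45903177, GRCh38) had 372, 303 and 372 CPM in the KO libraries, against 126 and 159.9 CPM in WT. All 3 KO libraries lay above both WT libraries, and the 2 groups were each tight. Its log2 change was 1.26 ± 0.17 (edgeR, adjusted p 0.00532). Every alternative but the title-code term kept the call, with log2 changes of 1.10 to 1.47. LZTFL1 overlaps CCR9 on the opposite strand, and whether counting used strand is not given in the sources used here. LZTFL1 was at 60.9, 66.1 and 64.4 CPM in KO and 64.4 and 55.3 CPM in WT, and was not called (log2 0.06, adjusted p 0.702).

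CCR7 (chromosome 17, 40553769 to 40565472), the receptor that draws maturing thymocytes to the medulla and lymphocytes to lymph nodes, was near the floor of detection in PF-382. It had 35, 95 and 96 counts in the KO libraries, which are 0.573, 1.10 and 1.31 CPM, against 9 and 3 counts, or 0.281 and 0.0971 CPM, in WT. The KO libraries were all above the WT libraries, yet the second WT library stood at only 3 counts. The log2 change was 2.35 ± 0.61 with an adjusted p of 0.0312 by edgeR. This call was lost without KO replicate 2 (log2 2.26, adjusted p 0.0847), KO replicate 3 (2.09, 0.0940) or WT replicate 2 (1.82, 0.0734), and the log2 change was 3.31 without WT replicate 1.

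CXCR4 (chromosome 2, 136114349 to 136118165) binds CXCL12 and holds early thymocytes in the cortex and blasts in bone marrow niches. It had 674, 625 and 751 CPM in the KO libraries, against 727 and 654 CPM in WT. The ranges overlapped fully, and the log2 change was -0.04 ± 0.14 with an adjusted p of 0.837 by edgeR. Its sign turned with the setting, between -0.21 with upper quartile scaling and 0.04 without WT replicate 1.

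S1PR1 (chromosome 1, 101236865 to 101243713) showed the deepest fall of the 9. It had 2.26, 4.28 and 1.42 CPM in the KO libraries, from 138, 370 and 104 counts, against 23.0 and 24.7 CPM in WT, from 737 and 764 counts. The highest KO library was still far below the lower WT library, although the KO libraries differed among themselves by 3.01-fold, where the median gene differed by 1.23-fold. The log2 change was -3.19 ± 0.43 with an adjusted p of 0.00515 by edgeR, and of the alternatives the title-code term alone lost the call (log2 -3.74 to -2.91 over all of them).

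KLF2 (chromosome 19, 16324817 to 16327874), the transcription factor that switches S1PR1 on in mature T cells, did not pass the test. It had 3.08, 9.84 and 2.96 CPM in the KO libraries, against 2.63 and 5.93 CPM in WT. KO replicate 2 stood alone above the others, and the remaining libraries were interleaved. The log2 change was 0.28 ± 0.63 (edgeR, adjusted p 0.761), and it ranged from -0.54 without KO replicate 2 to 1.01 without WT replicate 2.

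Of the integrin chains, ITGAL (chromosome 16, 30472658 to 30523185) is the alpha chain of LFA-1, which pairs with ITGB2 and binds ICAM1. ITGAL had 11.3, 10.8 and 12.0 CPM in the KO libraries, against 41.1 and 48.3 CPM in WT. Both groups were tight and far apart. The log2 change of -1.998 ± 0.129 had the smallest adjusted p of the set, 0.00218 by edgeR, and stayed called in every alternative, between -2.16 and -1.85.

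ITGA4 (chromosome 2, 181457202 to 181536187) is the alpha chain of VLA-4 with ITGB1 and of the gut-homing integrin with ITGB7. It had 293, 201 and 164 CPM in the KO libraries, against 584 and 466 CPM in WT, with every KO library below both WT libraries. The log2 change was -1.29 ± 0.25 (edgeR, adjusted p 0.0140), a 2.44-fold fall, and the call was lost without KO replicate 2 (-1.24, adjusted p 0.0566). The count and the FPKM the authors gave for ITGA4 imply an effective transcript length of 3453, 3342 and 3467 bases in KO, against 2896 and 2680 bases in WT. In RSEM this length is an average over isoforms weighted by their abundance. The genes whose lengths are given, ITGA4 and KLF2, were chosen after these values were seen. The KO/WT ratio of 1.23 was exceeded by 3.34% of 9805 protein-coding genes, and 20.1% of those genes had a longer value in every KO library.

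ITGB7 (chromosome 12, 53191318 to 53207307), the beta chain of the gut-homing integrin, had 0.884, 2.35 and 1.92 CPM in the KO libraries, against 1.28 and 0.518 CPM in WT. The groups overlapped, and the log2 change of 0.91 ± 0.56 did not pass (edgeR, adjusted p 0.257). It overlaps ZNF740 on the opposite strand, which had 54.8 to 62.3 CPM in KO and 50.5 to 51.0 CPM in WT, so its few reads are uncertain.

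CD44 (chromosome 11, 35138870 to 35232402), the hyaluronan receptor that in mice marks early thymic immigrants, had 3.36, 7.20 and 2.61 CPM in the KO libraries, against 5.09 and 0.389 CPM in WT. The WT libraries differed from each other by 13.1-fold, where the median gene differed by 1.29-fold, and enclosed 2 of the KO libraries. The log2 change was 0.65 ± 0.93 (edgeR, adjusted p 0.619). It was 3.47 with an adjusted p of 0.0176 without WT replicate 1 and -0.21 without WT replicate 2, so the pair of WT libraries decides this value.

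**Figure D2:**
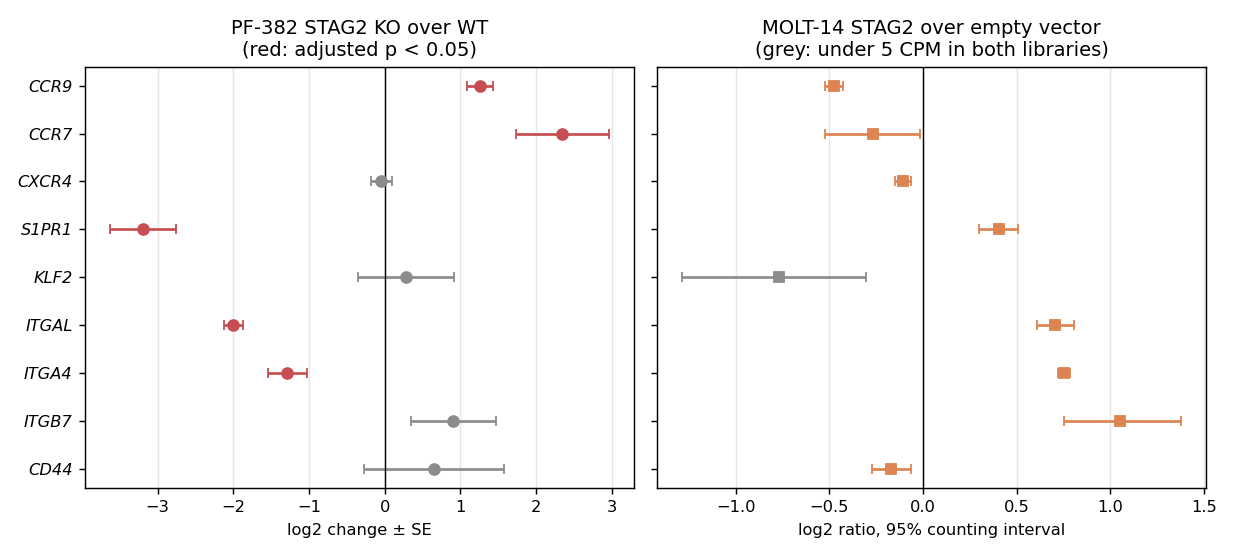
Left, log2 change of each gene in PF-382, STAG2 KO over WT, with its SE (red: adjusted p under 0.05 by edgeR). Right, log2 ratio in MOLT-14, STAG2 over EV, with the 95% counting interval of 1 library a group; S1PR1, ITGAL and ITGA4 are negative on the left and positive on the right, and CCR9 and CCR7 the reverse.

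Of the partners of the integrin alpha chains, ITGB2 rose and ITGB1 and ITGB7 were not called. On the length-scaled TPM the authors deposited, ITGAL had 1.95 ± 0.388 TPM in KO (SD, n = 3) and 7.10 ± 2.55 TPM in WT (n = 2). Its partner ITGB2 had 46.7 ± 3.95 TPM in KO and 28.4 ± 3.30 TPM in WT, far above ITGAL in each library. In CPM, ITGB2 rose with a log2 change of 0.50 ± 0.12 (edgeR, adjusted p 0.0238), a call lost without any 1 of the KO libraries and with upper quartile scaling. ITGA4 had 28.8 ± 11.6 TPM in KO and 75.7 ± 5.98 TPM in WT, while ITGB1 had 13.99 ± 1.51 TPM in KO and 11.5 ± 5.51 TPM in WT and was not called (log2 0.22, adjusted p 0.450). ITGB7 stayed under 0.5 TPM in every PF-382 library. In KO libraries ITGA4 thus stood between ITGB2 and ITGB1 in mean TPM, whereas in both WT libraries it stood above every other chain of these 5.

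**Figure D3:**
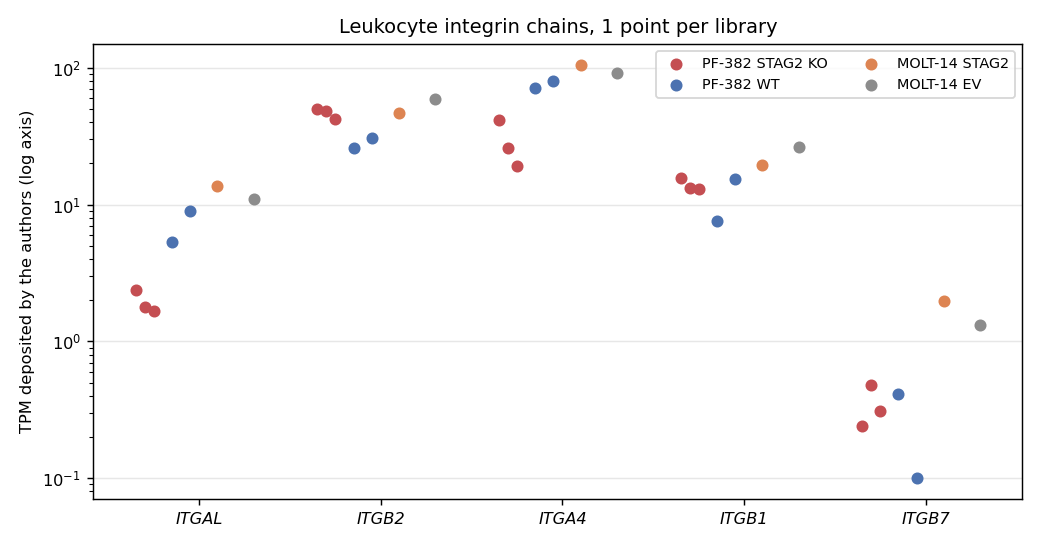
TPM of the alpha chains ITGAL and ITGA4 and of their partner beta chains ITGB2, ITGB1 and ITGB7, 1 point per library on a log axis. ITGAL and ITGA4 are lower in the STAG2 KO than in the WT libraries of PF-382, ITGB2 is higher, and ITGB7 is at 0.10 to 0.48 TPM in PF-382 against 1.96 TPM with STAG2 and 1.31 TPM with EV in MOLT-14.

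Ordered by mean TPM, the KO libraries had CXCR4 first (202 TPM), then CCR9 (80.3 TPM), ITGA4 (28.8 TPM), ITGAL (1.95 TPM), KLF2 (1.28 TPM), CD44 (0.833 TPM), S1PR1 (0.603 TPM), ITGB7 (0.343 TPM) and CCR7 (0.217 TPM). In WT the order was CXCR4 (184 TPM), ITGA4 (75.7 TPM), CCR9 (31.4 TPM), ITGAL (7.10 TPM), S1PR1 (4.83 TPM), KLF2 (1.02 TPM), CD44 (0.525 TPM), ITGB7 (0.255 TPM) and CCR7 (0.035 TPM). CCR9 and ITGA4 changed places between the groups, and S1PR1 held the seventh place in KO and the fifth in WT. In KO the ranges of neighbouring genes overlapped from ITGAL downward, and in WT those of ITGAL and S1PR1 and those of KLF2, CD44 and ITGB7 did. In MOLT-14 with STAG2 the order was ITGA4 (105 TPM), CXCR4 (70.8 TPM), CCR9 (43.0 TPM), ITGAL (13.7 TPM), S1PR1 (11.7 TPM), CD44 (10.1 TPM), ITGB7 (1.96 TPM), CCR7 (1.59 TPM) and KLF2 (0.76 TPM). With EV it was CXCR4 (113 TPM), ITGA4 (92.0 TPM), CCR9 (81.7 TPM), CD44 (14.8 TPM), S1PR1 (13.4 TPM), ITGAL (11.03 TPM), CCR7 (2.86 TPM), KLF2 (2.04 TPM) and ITGB7 (1.31 TPM). With 1 library a state, the order within MOLT-14 has no spread to set it against.

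The wider pathways were read from 10 lists holding 191 genes, of which 144 were tested in PF-382. Of these, 14 were higher and 22 lower, or 25%, against 30.4% of all genes, with a median log2 change of -0.09. With the title-code term all 36 kept their sign and 3 their call, among them RASGRP1 and MMP14, and the losses named below are those under the other alternatives. Among other chemokine receptors 2 of 7 tested were higher and 0 lower. CCR2, a receptor for the monocyte chemokine CCL2, had 35, 30 and 19 counts in the KO libraries, against 0 in both WT libraries. Set against 3 counts per WT library, it was at least 4.05-fold higher, and a filter of 1 CPM removed it. Of 2 ligand genes tested, both were lower: CXCL12 had 0.597 ± 0.130 CPM in KO and 2.44 ± 1.06 CPM in WT (edgeR, adjusted p 0.0116, lost without KO replicate 3), and CCL25 was under 0.3 CPM throughout PF-382.

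Of the 17 tested genes of sphingosine 1-phosphate handling and signalling, 4 were higher and 1 lower. SPHK2, a kinase that makes the ligand, had 23.9 ± 0.532 CPM in KO and 13.1 ± 3.77 CPM in WT (log2 0.84, adjusted p 0.0215), and GNAI2, the inhibitory G protein through which S1PR1 signals, 359 ± 17.1 CPM in KO and 254 ± 10.5 CPM in WT (0.47, 0.0281). SPNS1, a lysosomal lysolipid transporter, was higher with fractional counts, and S1PR5 was higher at a few CPM. GRK2, the kinase that desensitises S1PR1, was lower (log2 -0.40, adjusted p 0.0382). All but SPNS1 lost their call without any 1 of the KO libraries, S1PR5 also without WT replicate 1, GRK2 also without WT replicate 2 or without a filter on low counts, and GNAI2 also with upper quartile scaling. CD69, which pulls S1PR1 off the surface, had 31.2, 24.2 and 59.0 CPM in KO and 70.3 and 64.1 CPM in WT and was not called (log2 -0.85, adjusted p 0.112).

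Among the 17 tested KLF, FOXO and MEF2 genes, 1 was higher and 3 lower. FOXO1, which in mouse T cells acts upstream of KLF2, had 1.22 ± 0.189 CPM in KO and 3.52 ± 0.606 CPM in WT, a log2 change of -1.55 ± 0.28 (edgeR, adjusted p 0.0104) held in all of those alternatives. MAPK7, the ERK5 kinase of the pathway to KLF2, was lower (log2 -0.68, adjusted p 0.0220), a call lost without KO replicate 2 or 3. KLF1 was under 1.3 CPM in every PF-382 library and lower (log2 -1.76, adjusted p 0.0260, lost without any KO library or WT replicate 1 and with a filter of 1 CPM). KLF13 was higher (0.96, 0.0455), a call lost without any KO library, with upper quartile scaling, with a filter of 1 CPM or over protein-coding genes only.

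Of the 16 other integrin chains tested, 1 was higher, ITGB2, and 4 were lower. ITGAM, the alpha chain of the myeloid integrin Mac-1, had 0.849 ± 0.457 CPM in KO and 15.2 ± 7.06 CPM in WT, a log2 change of -4.18 ± 0.52 (edgeR, adjusted p 0.00415), beside the fall in CD68 and CTSG given above. ITGA1, a collagen receptor chain, had 0.146 ± 0.0151 CPM in KO and 1.73 ± 1.44 CPM in WT (edgeR, adjusted p 0.00855), from fractional counts, and a filter of 1 CPM removed it. ITGA5, a fibronectin receptor chain, had 39.9 ± 5.23 CPM in KO and 61.4 ± 4.38 CPM in WT (edgeR, adjusted p 0.0180, lost without KO replicate 1 or 2).

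In the integrin activation list, 3 of 21 tested genes were higher and 4 lower. RASGRP1, which passes T-cell receptor signals to RAS, fell to 10.6 ± 2.30 CPM in KO, against 42.5 ± 2.62 CPM in WT (log2 -2.03 ± 0.20, edgeR, adjusted p 0.00276). STK4, the MST1 kinase that acts with RAP1 in LFA-1 activation, had 190.5 ± 7.62 CPM in KO and 102 ± 2.25 CPM in WT (0.87 ± 0.11, 0.00453). VCL, encoding vinculin, had 26.6 ± 2.07 CPM in KO and 13.2 ± 1.198 CPM in WT, and FERMT2, encoding kindlin-2, had 19.9 ± 0.769 CPM in KO and 31.6 ± 1.31 CPM in WT. These 4 calls held in all of those alternatives. The kindlin FERMT3 was also higher (log2 0.79, adjusted p 0.0224, lost without any KO library or with upper quartile scaling), and the talin TLN2 lower (-1.28, 0.0256, lost without KO replicate 2 or 3).

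Of 22 immunoglobulin-type and other adhesion receptors tested, 2 were lower and 0 higher. ICAM1, the ligand of LFA-1, had 3.92 ± 0.827 CPM in KO and 11.3 ± 0.819 CPM in WT (log2 -1.55 ± 0.23, edgeR, adjusted p 0.00653), and the junction molecule JAM3 had 61.9 ± 4.66 CPM in KO and 157 ± 63.6 CPM in WT (-1.37 ± 0.24, 0.00924). Of 23 tested genes of the migration machinery, 2 were higher and 3 lower. RGS14, a regulator of G protein signalling, had 31.9 ± 4.75 CPM in KO and 9.71 ± 2.79 CPM in WT (1.69 ± 0.22, 0.00480), while RGS10 and RGS2 were lower (-0.77 and -1.28). ARPC1B, an actin nucleation subunit, was higher (0.54), and the lymphocyte myosin MYO1G lower (-0.83). Both of those calls were lost without KO replicate 1 or 2, ARPC1B's also without KO replicate 3, with upper quartile scaling, with a filter of 1 CPM or over protein-coding genes only, and MYO1G's also without either WT library. Of 10 selectin and selectin-ligand genes 1 was lower, the glycan enzyme GCNT1 (4.53 ± 0.343 CPM in KO and 10.1 ± 2.37 CPM in WT), and that call was lost without KO replicate 2. Of 9 CD44 partners and splicing regulators 1 was higher and 2 lower. The hyaluronidase HYAL2 had 42.2 ± 3.02 CPM in KO and 19.0 ± 3.03 CPM in WT, and the membrane protease MMP14, which can cleave CD44, 0.188 ± 0.0787 CPM in KO and 1.89 ± 0.155 CPM in WT. ESRP1, an epithelial splicing factor that acts on CD44, had 5.69 ± 1.31 CPM in KO and 13.8 ± 4.01 CPM in WT, a call lost without KO replicate 1 or 2.

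In MOLT-14, returning STAG2 went with ratios opposite in sign to those of the PF-382 knockout for all 5 genes called there. Among all genes called in PF-382 and at least 1 CPM in MOLT-14, 45.4% had the opposite sign. With 1 library a group these ratios have no replicate check, and their intervals cover counting error only. On TPM the sign of S1PR1 turned, leaving 4 of 5, with 60.5% of all such genes opposite.

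CCR9 had 111 CPM with STAG2 and 155 CPM with EV, a log2 ratio of -0.47 (95% interval -0.52 to -0.42). S1PR1 had 35.6 CPM with STAG2 and 27.1 CPM with EV (0.40, 0.30 to 0.51), but 11.7 TPM with STAG2 and 13.4 TPM with EV. TPM ratios of all genes of at least 5 CPM had a median log2 of -0.51, against 0.04 for TMM-scaled CPM, and relative to that shift S1PR1 was 0.32 on the TPM scale.

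ITGAL had 44.4 CPM with STAG2 and 27.4 CPM with EV (log2 ratio 0.70, 0.61 to 0.80). ITGA4 had 389.7 CPM with STAG2 and 233 CPM with EV (0.75, 0.72 to 0.79). Both integrin alpha chains were therefore higher in the library with STAG2 in each line, though neither ratio reached 2-fold in MOLT-14.

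ITGB7 had 5.43 CPM with STAG2 and 2.62 CPM with EV (log2 ratio 1.05, 0.75 to 1.37). It was the 1 gene past 2-fold among the 8 of at least 5 CPM, against 1.96% of 11437 such genes, and was under 2-fold with total-count scaling or TPM. Relative to the median TPM shift of all genes given above, ITGB7 was 1.09 in log2 on the TPM scale. KLF2, with 58 counts in the STAG2 and 98 in the EV library, was under 5 CPM in both (log2 ratio -0.77, -1.28 to -0.31). CCR7 had 4.78 CPM with STAG2 and 5.80 CPM with EV (-0.27), CD44 28.6 CPM with STAG2 and 32.3 CPM with EV (-0.17), and CXCR4 162 CPM with STAG2 and 176 CPM with EV (-0.11).

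Whether the STAG2 effect differed between the lines was tested by an interaction, which sets KO over WT in PF-382 against EV over STAG2 in MOLT-14. By edgeR 0 of the 9 were called, against 0.607% of 20100 genes (69 higher and 53 lower, but 3 higher and 25 lower with upper quartile scaling), and 3 had an unadjusted p under 0.05. These were ITGAL (log2 difference -1.28, adjusted p 0.0700), S1PR1 (-2.77, 0.123) and CCR9 (0.81, 0.195), each with the larger change in PF-382. DESeq2 called ITGAL and S1PR1 (adjusted p 0.000372 and 0.00588), in a fit that called 1491 of all genes higher and 710 lower. By edgeR the log2 difference of ITGAL was -1.41 without WT replicate 1 and -1.17 without WT replicate 2, each leaving 1 WT library.

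Between the lines, CXCR4 was 4.06-fold higher in PF-382, while CCR7 was 11.5-fold and CD44 8.68-fold lower there. Over all 7 libraries S1PR1 was 4.95-fold lower, but its log2 difference was -3.38 for KO over EV and -0.60 for WT over STAG2. In the fit of 7 libraries with the STAG2 state as a second term, 2 of the 9 were higher in PF-382, 5 were lower and 2 were not called, against 47.6% of all 20100 genes, 22.4% higher and 25.2% lower. PF-382 and MOLT-14 libraries did not overlap for 6 of the 9, against 56.5% of all genes. The median log2 difference of the 9 was -0.72, and that of all genes -0.08.

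CXCR4 was higher in PF-382 by a log2 of 2.02 ± 0.18 (edgeR, adjusted p 0.000128), with 625 to 751 CPM in PF-382 and 162 to 176 CPM in MOLT-14. CCR7 was lower in PF-382 by a log2 of -3.53 ± 0.56 (adjusted p 0.00166), with 0.0971 to 1.31 CPM in PF-382 and 4.78 to 5.80 CPM in MOLT-14. CD44 was lower by -3.12 ± 0.68 (adjusted p 0.00682), with 0.389 to 7.20 CPM in PF-382 and 28.6 to 32.3 CPM in MOLT-14. CXCR4 and CCR7 kept their calls in every alternative, and CD44 lost its call without the EV library (adjusted p 0.0576) or without the STAG2 library of MOLT-14 (0.0502). The size of the CCR7 difference turned on the MOLT-14 libraries, at -4.65 without EV and -2.54 without STAG2. That of CD44 turned on the WT libraries, at -4.04 without WT replicate 1 and -2.75 without WT replicate 2.

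Within a single STAG2 state, 3 KO or 2 WT libraries were set against 1 MOLT-14 library, which is assumed to vary like the PF-382 ones. States were matched by label, KO with EV and WT with STAG2, and not by STAG2 level. STAG2 had 179.7 to 256 CPM in KO, above the 137 CPM of MOLT-14 with STAG2, and 1.15 CPM with EV. KO over EV called 57.9% of all genes, 28.7% higher and 29.3% lower, and WT over STAG2 19.6%, 8.61% higher and 11% lower, so a call in the first and not in the second is no sign of a difference between states. The difference between the states is the interaction given above, which edgeR called for none of the 9. KO cells had more CCR9 than MOLT-14 EV cells (log2 1.13 ± 0.16, edgeR, adjusted p 0.00170), less S1PR1 (-3.38 ± 0.49, 0.00199) and less ITGAL (-1.31 ± 0.14, 0.000613). WT cells against MOLT-14 STAG2 cells gave 0.35 ± 0.35 for CCR9 (adjusted p 0.517), -0.60 ± 0.32 for S1PR1 (0.210) and -0.01 ± 0.32 for ITGAL (0.982), none called. Pooled over both states the line difference was 0.77 ± 0.23 for CCR9 (0.0251), -2.31 ± 0.59 for S1PR1 (0.0128) and -0.72 ± 0.26 for ITGAL (0.0488). Without the EV library these became 0.36 (adjusted p 0.251), -0.59 (0.420) and -0.00 (0.998), and without the STAG2 library of MOLT-14 they were 1.17, -3.35 and -1.27. CCR9 and ITGAL libraries of the lines overlapped in CPM. The higher CCR9 in PF-382 was not seen in mean TPM. These were 80.3 TPM in KO and 81.7 TPM with EV, and 31.4 TPM in WT and 43.0 TPM with STAG2. Mean TPM of S1PR1 and ITGAL were lower in PF-382 in both pairs. The cause of this dependence on scale was not tested. The pooled CCR9 call was also lost without KO replicate 1, KO replicate 3 or WT replicate 2 (adjusted p 0.0518 to 0.0551), and that of ITGAL without any KO library or WT replicate 1 (0.0640 to 0.107).

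**Figure D4:**
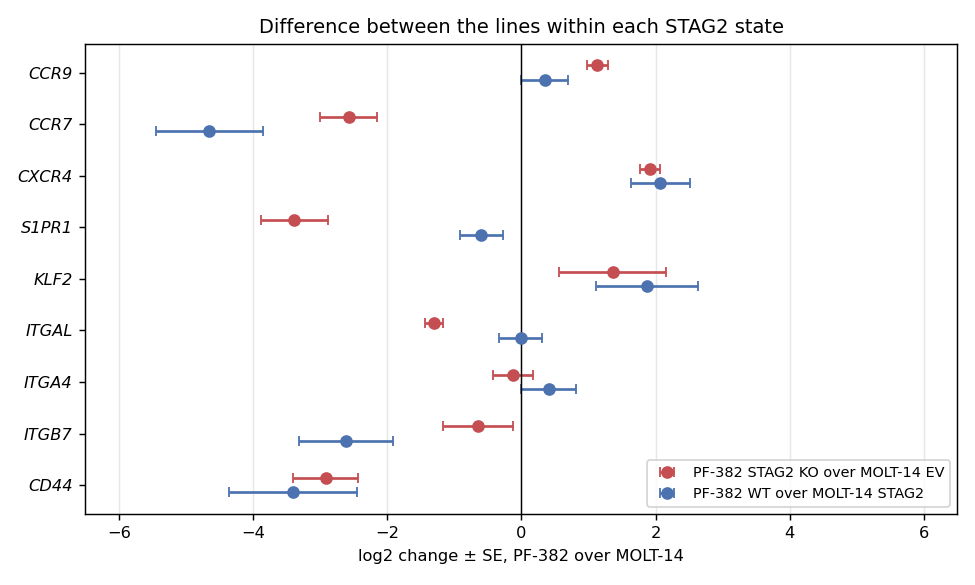
Log2 difference between the lines, PF-382 over MOLT-14, for each gene, with SE. The pairs STAG2 KO over EV (red) and WT over STAG2 (blue) match labels and not STAG2 levels. CXCR4 is near 2 in both, and S1PR1 is at -3.38 for KO over EV and -0.60 for WT over STAG2, each against 1 MOLT-14 library.

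ITGB7 was lower in PF-382 by a log2 of -1.65 ± 0.59 (edgeR, adjusted p 0.0497). It was -2.61 ± 0.70 for WT over MOLT-14 STAG2 (0.0311) and -0.64 ± 0.52 for KO over EV (0.323), and the pooled call was lost without MOLT-14 STAG2, KO replicate 1, KO replicate 3 or either WT library (adjusted p 0.0649 to 0.464). KLF2 was not called (1.62 ± 0.60, adjusted p 0.0560), although in CPM all 5 PF-382 libraries lay above both MOLT-14 libraries. It was called without KO replicate 1 (0.0479) or KO replicate 3 (0.0463), without a filter on low counts (0.0336) and by DESeq2 (0.0164). For KLF2 the implied effective length was 1757 to 1853 bases in PF-382, and in MOLT-14 1007 bases with STAG2 and 967 bases with EV, and 0.541% of genes had a larger ratio. In TPM, which is scaled for length, KLF2 overlapped between the lines. It had 0.5 to 2.31 TPM in PF-382, 0.76 TPM with STAG2 and 2.04 TPM with EV. ITGA4 was not called between the lines (0.15 ± 0.25, adjusted p 0.657).

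The genes closest in pattern over the 7 libraries were found by the root mean square difference of centred log2 CPM. For CCR9 they were HSPE1 (0.136) and ABCC4 (0.138), for CXCR4 SGPP1 (0.106) and SOCS5 (0.122), and for ITGAL NFKBIZ (0.156) and CCDC150 (0.210). ITGA4 was closest to NFATC1 (0.192) and PITPNM2 (0.200), and CCR7 to FDXR (0.195) and ELOVL6 (0.253). S1PR1 was closest to DDIT4 (0.428) and BACH2 (0.467). These differences were larger, but its own spread was 1.65, against 0.619 for ITGA4. ITGB7 was closest to C16orf54 (0.253) and SFXN5 (0.289), KLF2 to RNF157 (0.378) and DPYSL5 (0.405), and CD44 to EGFL7 (0.381) and SLC9A3R1 (0.405). The 7 libraries share 2 lines and their depths, so these values describe these libraries.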

How the data were processed

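Each deposited table gives expected counts per gene, which are unnormalised read estimates by the file headers. The same deposited tables hold TPM and FPKM, both scaled by the authors for transcript length and library. STAR and RSEM on GRCh38/hg38 are named in the submitters' processing notes, while versions, annotation release and strand setting are not given in the sources used here. Expected counts were rounded (91.8% to 93.3% were whole already, and those of all 9 genes were whole), and 92 spike-in features were left out. TPM served for levels between genes, and FPKM with counts for implied lengths.

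PF-382 was fitted with edgeR 4.0.16 in R 4.3.3 (TMM, filterByExpr, quasi-likelihood test, two-sided, Benjamini-Hochberg over all genes tested, threshold 0.05) on its own 5 libraries. The line difference and the interaction used all 7 libraries, and the interaction takes its spread from PF-382 alone. All adjusted p-values are edgeR's unless DESeq2 (1.42.0) is named. Standard errors were derived from the log2 change and the F statistic. MOLT-14 ratios were taken between TMM-scaled CPM, adding a prior count of 2, over genes of at least 5 CPM, and exact binomial 95% intervals. Intervals and the floor of 3 counts hold counting error alone, because without molecular identifiers several reads may stem from 1 molecule. On simulated data 33% of 2-fold and 77% of 4-fold changes were called in the PF-382 fit (17053 genes), with 9.09% of calls false. For the line fit (19144 genes) these were 11%, 66.7% and 4.94%, and for the interaction (18975 genes) 0%, 24% and 17.2%. Each simulation changed 200 genes, all past a floor on counts, whereas 5311 were called in the PF-382 fit. The rates depend on that number and may not hold for the real fits.

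The 9 genes and all lists were chosen with earlier results of these data known. Text names all 9, STAG2, up to 3 called genes each way per list by adjusted p (others where a result turns on them), and the 2 protein-coding genes of at least 5 CPM closest to each in pattern. Of the listed genes, 2 are not analysed here, and results for some others are not reported here. Positions are from GENCODE 29. Alternatives were DESeq2, upper quartile scaling, other filters, protein-coding genes only, other scalings for MOLT-14, single STAG2 states, leaving out each library and, chosen after seeing the data, the letters of the title code as a second term.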

Additional observations from a re-analysis of the deposited data

Results flagged for a closer look

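The change of STAG2 itself differed between the lines: the log2 difference between KO over WT in PF-382 and EV over STAG2 in MOLT-14 was 5.80 ± 0.56 (edgeR interaction test, adjusted p 0.0477). STAG2 had 179.7 to 256 CPM in KO and 334 to 567 CPM in WT libraries of PF-382, and 137 CPM with STAG2 and 1.15 CPM with EV in MOLT-14. The call was lost without any 1 of the KO libraries (adjusted p 0.150 to 0.204). STAG2 is the manipulated gene, edited in PF-382 and supplied by vector in MOLT-14, so this difference is no measure of how the lines respond.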

How the results depend on the processing

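No paired analysis was possible because the labels give the libraries no shared replicate numbers, and replicate numbers here follow deposition order. The code letters in the titles (SA for both WT libraries and KO replicate 1, SB for KO replicates 2 and 3) have no stated meaning. In PF-382 the genes called numbered 2 higher and 3 lower; leaving out each library in turn gave 1 to 3 higher and 2 to 3 lower, and the code letters as a second term, chosen after seeing the data, 0 higher and 1 lower. Between the lines 2 were higher and 5 lower; leaving out each library gave 1 to 2 higher and 2 to 4 lower, and WT over MOLT-14 STAG2 alone gave 1 higher and 3 lower. By interaction 0 were called, with 0 higher and 0 to 1 lower when a library was left out, and 2 lower with DESeq2. In MOLT-14, 1 gene was past 2-fold upward, and 0 with total-count scaling or TPM. No value past its threshold changed sign in the alternatives run. With upper quartile scaling the PF-382 median over all genes was -0.18 in log2, against -0.02. Calls over all PF-382 genes (2763 higher, 2548 lower) were 1824 higher and 3566 lower with upper quartile scaling, 291 higher and 147 lower with the code letters as a second term, and 1194 to 3570 higher and 1077 to 2734 lower with a library left out. Interaction calls over all genes (69 higher, 53 lower) were 1491 and 710 with DESeq2, 448 and 200 without a filter, 3 and 25 with upper quartile scaling, and 0 to 1580 and 0 to 716 with a library left out. The cause of these shifts was not tested. Depth limits CCR7 and ITGB7 in PF-382, where WT libraries held 3 to 41 counts. It also limits CD44, which had 12 counts in WT replicate 2 and 163 in WT replicate 1.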

Other observations

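Protein-coding genes within 500 kb of each gene called in PF-382 were looked up after its values had been seen. Near CCR9, LARS2, the mitochondrial leucyl-tRNA synthetase, had a log2 change of 0.94 ± 0.14 (edgeR, adjusted p 0.00628) and LIMD1, a LIM domain protein, 0.71 ± 0.17 (0.0240), both higher in KO than in WT. CCR2, with 0 counts in WT, is given above. LZTFL1, SACM1L and FYCO1, closer to CCR9, were not called. Around ITGA4, 2 of 4 tested neighbours were lower and 0 higher: PPP1R1C (-1.27 ± 0.14, adjusted p 0.00360) and ITPRID2 (-0.57 ± 0.15, 0.0327). Around ITGAL 8 of 46 were higher and 5 lower, around CCR7 2 of 14 were higher and 0 lower, and around S1PR1 1 of 3 was higher and 0 lower. The shares over all tested genes are 15.8% higher and 14.6% lower.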
